A study of Saccharomyces cerevisiae with 8 samples.

Results

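The mutants described here lack, or carry a weakened copy of, a gene for a protein of the mitochondrial ribosome of Saccharomyces cerevisiae. Members were taken by name, as every gene of the array annotation called MRPL, MRPS, MRP or RSM with a number, together with IMG1 and IMG2. The rule found 66 genes of the 5100 named on the array, of which 39 code for proteins of the large subunit and 25 for proteins of the small subunit. The other 2 names are no ribosomal proteins in the annotation used here. They are RSM22, a methyltransferase-like factor that acts in assembly of the small subunit, and MRP8. A mutant of 59 of the 66 genes gave a value on at least 1 array, and no value was at hand for MRPL3, MRPL19, MRPL35, MRPL36, MRPS12, MRPS17 and MRP8.

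The study asked which mutants of the pooled, barcoded collection of haploid yeast strains grow worse or better in selenomethionine (SeMet), the selenium analogue of methionine. The pool holds deletion mutants made in BY4741 and DAmP mutants, in which the mRNA of an essential gene is made less stable. The gene names on the array do not tell these kinds apart, and values were not separated by kind of strain. The study's supplementary score table has a column for the kind, which was not used to sort the mutants here. If a gene had probes for both kinds, its average would mix them. A "mutant" below therefore stands for whatever strains carry the gene's name. On 3 arrays the pool grown for 10 generations with 20 µM SeMet was set against the untreated pool, and on 2 arrays the pool grown for 10 generations with 12 µM SeMet was set against the untreated pool. On 3 further arrays the untreated pool after growth, 16 h by the labels, was set against the pool at t = 0. All cultures were in synthetic complete medium with glucose and with added methionine and cysteine. Every strain was therefore measured in competition with all others, and its score is relative to the rest of the pool.

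The mitochondrial ribosome translates the few messages encoded in mitochondrial DNA, nearly all of which are for subunits of the respiratory chain and the ATP synthase. Yeast that loses it cannot respire and tends to lose the mitochondrial genome, but can still live by fermenting glucose, and such "petite" cells grow slowly. The ribosome descends from that of bacteria. Its proteins are either of families shared with bacteria, written with a leading u or b in the universal names (uL3m is the mitochondrial member of the family of bacterial L3), or particular to mitochondria, written with a leading m. Universal names are those of the RefSeq annotation, which gave one for 64 of the 66 genes.

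Values are log2 ratios of tag abundance. SeMet over untreated is called the SeMet score below, and untreated over t = 0 the growth score. Probes of a gene were averaged on each array, and the values of the 59 mutants came from 1 probe in 5 cases, 2 probes in 38, 3 in 3 and 4 in 13, with a median SD between probes of 0.24. A mutant was scored if at least 2 arrays of a group gave a value, which held for 54 mutants at 20 µM (34 large, 19 small and RSM22), 50 at 12 µM (33 large, 16 small and RSM22) and 57 for growth (35 large, 21 small and RSM22). Between 4353 and 4722 genes had a value on an array. The spread over all strains was larger on the third 20 µM array (SD 1.11) than on the other two (0.80 and 0.78), and smaller at 12 µM (0.42 and 0.53). The SeMet or grown pool always carried the same dye, so an effect of the dye on a probe cannot be told apart from that of the pool. The mean of each group was compared with 0 in 1 limma fit of the 8 arrays, p-values were adjusted by Benjamini-Hochberg over every gene scored, and "higher" and "lower" below mean an adjusted p under 0.05. Means are given ± SD over arrays, with n = 3 unless stated.

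Without SeMet, many of these mutants were depleted during growth. The growth score was lower in 24 of the 57 mutants scored and higher in 2, where 12.7% of all 4628 genes scored were lower and 14.2% higher. When each array was centred on its median these shares over all genes turned, to 665 lower and 441 higher against 588 lower and 656 higher as deposited, whereas the mutants gave 27 lower and 2 higher. The median growth score was −0.50 over the 57 mutants and 0.08 over all genes. A mean below −1 was found in 16 mutants, against 9.2% of all genes, and a mean below −1.5 in 9, against 5.38%. None of the 57 had a mean above 1.5, against 1.12% of all genes. On every growth array, 36 of 56 mutants with 3 values were below 0 and 7 of 56 were above it, where 22.2% and 38.6% of all genes were.

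**Figure D1:**
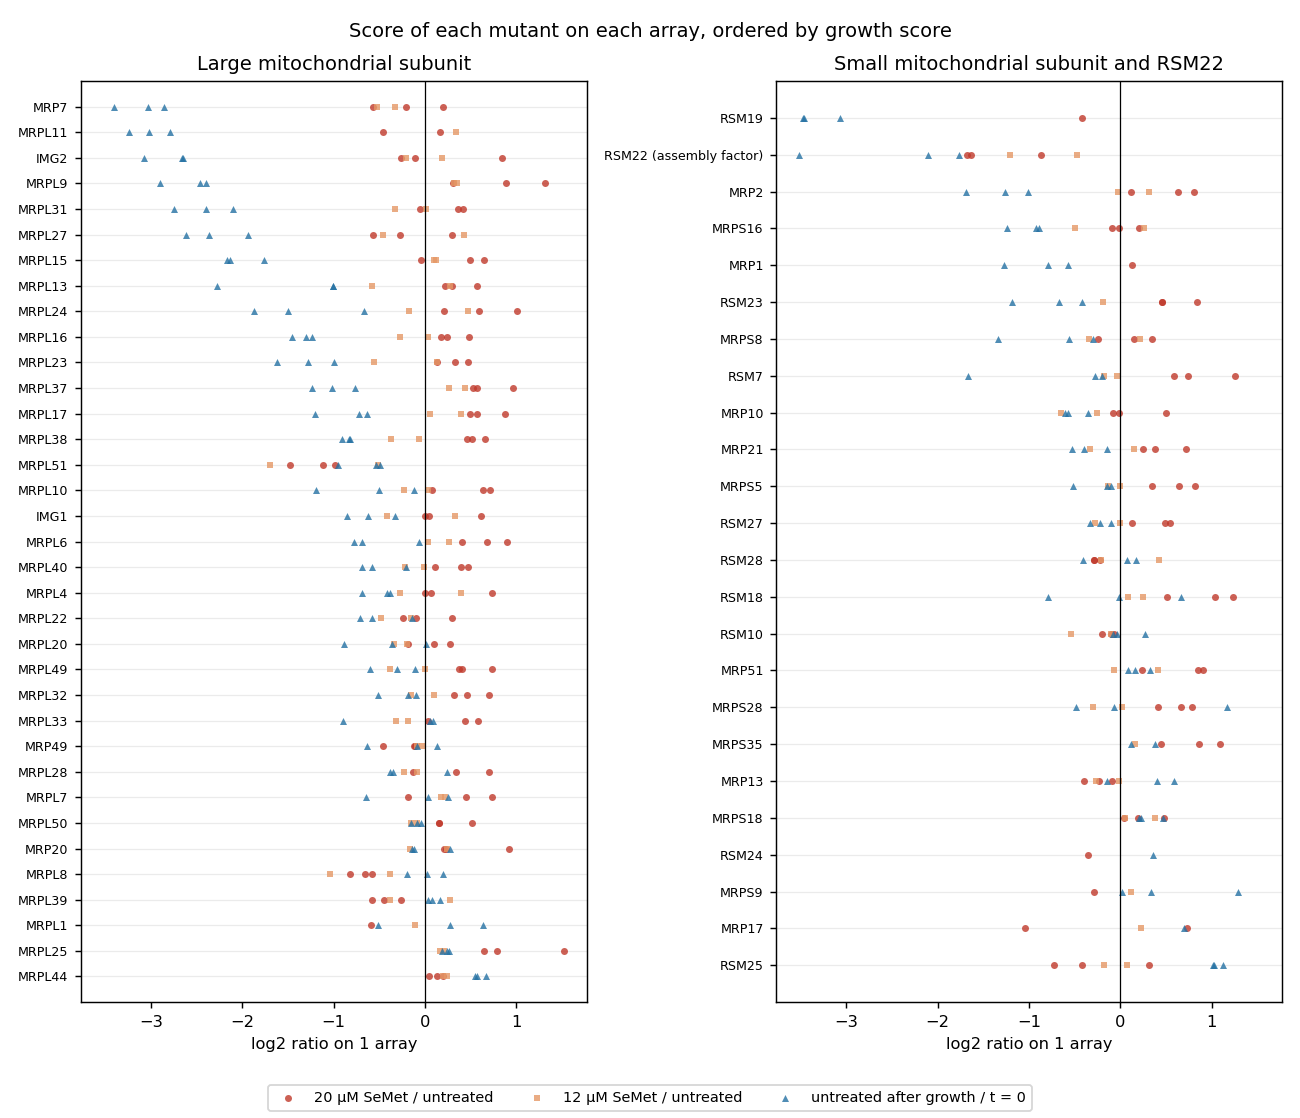
Log2 ratio of each mutant with a value (rows, ordered by mean growth score, lowest at the top) on each array; the left panel holds the large subunit, the right panel the small subunit and RSM22. Circles are the 20 µM SeMet arrays, squares the 12 µM SeMet arrays and triangles the growth arrays; the triangles furthest to the left belong to RSM22, RSM19 and MRP7 (down to −3.52), while the circles stay between −1.68 and 1.52.

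Of the 9 mutants with a growth score below −1.5, 7 were of the large subunit, 1 of the small subunit, and the last was RSM22. Mutants of MRP7, the bL27m protein whose bacterial relative reaches to the peptidyl transferase centre, had growth scores of −2.86, −3.41 and −3.04. MRPL11 (uL10m), the anchor of the stalk that binds translation factors in bacterial ribosomes, had −3.02, −2.79 and −3.25. IMG2 (mL49), which owes its name to its need for integrity of the mitochondrial genome, had −2.66, −2.65 and −3.08. All 9 of these values were below −2.6, and the means were −3.10 ± 0.28, −3.02 ± 0.23 and −2.80 ± 0.25 (adjusted p = 0.00041, 0.00046 and 0.00041 by limma). MRPL9 (uL3m), of the family that helps shape the catalytic centre, followed with −2.91, −2.40 and −2.46. Its mean was −2.59 ± 0.28 (adjusted p = 0.00041 by limma). MRPL31 (mL60), MRPL27 (mL41) and MRPL15 (mL57), all particular to mitochondria, had means of −2.42 ± 0.32, −2.31 ± 0.34 and −2.02 ± 0.23, with MRPL31 resting on 1 probe. The remaining 9 large-subunit mutants with a lower score were MRPL13 (−1.43 ± 0.73), MRPL24 (−1.35 ± 0.62), MRPL16 (−1.33 ± 0.11), MRPL23 (−1.30 ± 0.31), MRPL37 (−1.01 ± 0.23), MRPL17 (−0.85 ± 0.31), MRPL38 (−0.85 ± 0.05), IMG1 (−0.60 ± 0.26) and MRPL40 (−0.50 ± 0.25). MRPL13 owed its mean in part to 1 array, with −2.28 on the third and −1.01 on each of the other two. MRPL40 lost its call without the first or the second growth array and with the growth arrays alone in the fit. MRPL24 lost its call without the first growth array.

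Of the 35 scored mutants of the large subunit, 16 were lower, 1 was higher and 18 did not pass the test, these with means from −0.66 (MRPL51) to 0.23 (MRPL25). MRPL44 (mL53) was higher, with 0.55, 0.67 and 0.57 and a mean of 0.60 ± 0.06 (adjusted p = 0.0047 by limma). MRPL25 (mL59), also known as AFO1, whose loss was described to lengthen the replicative life span of yeast, had 0.19, 0.26 and 0.25. MRPL39 (bL33m) had 0.077, 0.17 and 0.028, and MRPL1 (uL1m) had −0.52, 0.28 and 0.63. The last thus had values on both sides of 0, and none of these 3 means passed the test. Of the families shared with bacteria, 9 of 22 large-subunit mutants were lower, with a median of −0.50, and of the proteins particular to mitochondria, 7 of 13, with a median of −0.85. Both kinds hold mutants below −2, and the difference between them was not tested.

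In the small subunit the lowest growth score belonged to RSM19 (uS19m), with −3.08, −3.48 and −3.47. This was the lowest mean of all 57 mutants, −3.34 ± 0.23 (adjusted p = 0.0005 by limma), and stood apart from the rest of its subunit. MRP2 (uS14m) came next with −1.27, −1.70 and −1.01, then MRPS16 (bS16m) with −1.24, −0.93 and −0.90. Their means were −1.32 ± 0.35 and −1.02 ± 0.19 (adjusted p = 0.0025 and 0.0041 by limma). MRP1 (mS43), RSM23 (mS29, the relative of the mammalian protein DAP3), MRPS8 (uS8m) and MRP10 (mS37) were lower by less, with means of −0.88 ± 0.36, −0.76 ± 0.39, −0.74 ± 0.54 and −0.51 ± 0.14. Of these, MRP1, MRPS8 and MRP10 passed the test only with all 3 growth arrays, as did IMG1 of the large subunit, and RSM23 did not pass without the first or the third. In all, 7 of 21 small-subunit mutants were lower, 4 of 13 of bacterial families and 3 of 8 particular to mitochondria. RSM25 (mS23) was higher, with 1.13, 1.02 and 1.02 and a mean of 1.06 ± 0.06 (adjusted p = 0.0064 by limma), above every other mutant of either subunit. MRPS9 (uS9m), MRPS18 (uS11m) and MRP13 (mS44) had means of 0.55 ± 0.66, 0.30 ± 0.14 and 0.28 ± 0.38 and did not pass.

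RSM22 was depleted as well. Its growth scores were −1.77, −2.10 and −3.52, and its mean was −2.46 ± 0.93 (adjusted p = 0.0025 by limma). The SD between arrays was above the median SD of 0.26 over the 57 mutants, and so was that between its 2 probes (0.50, against a median of 0.24).

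Medians of the subunits were compared on each growth array. The median of the large subunit was −0.63, −0.77 and −0.33, and that of the small subunit −0.081, −0.42 and −0.10. The large subunit was therefore lower on all 3 arrays, by 0.55, 0.35 and 0.23. The same held among the 33 large and 16 small mutants with a value on all 8 arrays. With 3 arrays a test of sign cannot pass 0.05, so none is given. Of the 6 ribosomal proteins without a value, MRPL19 (uL11m) overlaps the reading frame YNL184C by 113 bases in the annotation, and the mutant of YNL184C had growth scores of −1.56, −1.64 and −1.68.

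**Figure D2:**
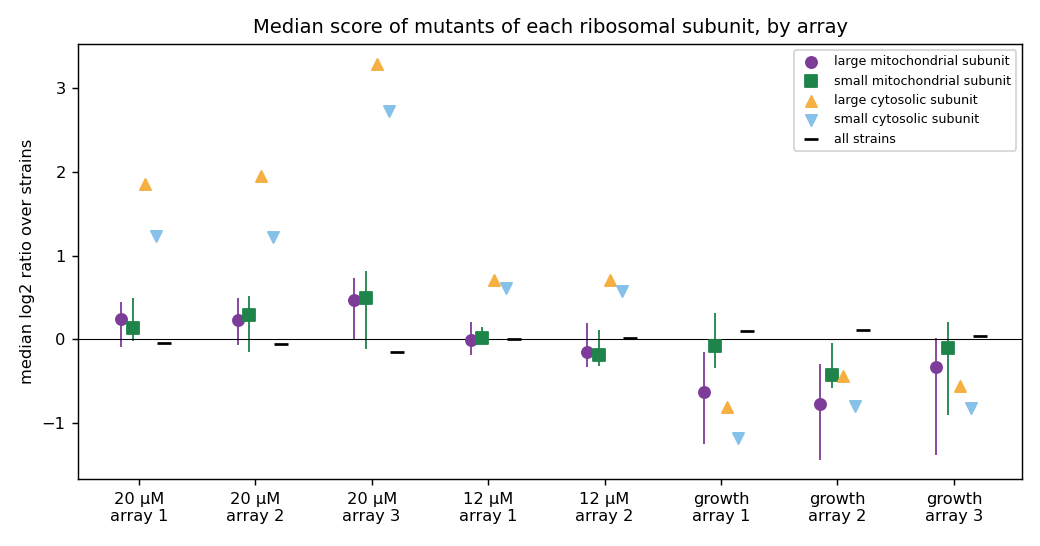
Median log2 ratio over the mutants of each ribosomal subunit (y axis) on each of the 8 arrays (x axis); bars give the quartiles for the mitochondrial subunits and black dashes the median of all strains. The medians of the mitochondrial subunits lie between 0.14 and 0.49 at 20 µM and below 0 on all growth arrays, with the large subunit below the small one on the latter.

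With 20 µM SeMet most of the mutants scored a little above the pool. Of the 54 scored, 13 were higher and 3 lower, where 12.5% of all 4536 genes scored were higher and 13.8% lower. The median SeMet score was 0.31 over the 54 mutants (0.31 for the large and 0.39 for the small subunit) and −0.090 over all genes, and 40 of the 54 means were above 0. No mutant had a mean above 1.5, which 5.34% of all genes had, or below −1.5, which 3.06% had. All 3 arrays were above 0 for 30 of 52 mutants and below 0 for 8 of 52, where 23.2% and 36.5% of all genes were. The number of calls depended on the third array, the one with the widest spread. Without it 3 mutants were higher (MRPL25, MRPL37 and MRPL38) and 1 was lower (MRPL51), while without the first or the second array 9 were higher.

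In the large subunit, 8 of 34 mutants were higher and 2 lower. The highest was MRPL25, with 0.65, 0.79 and 1.52 at 20 µM. Every array lay above 0, the third well above the other two, and the mean was 0.99 ± 0.47 (adjusted p = 0.0035 by limma). MRPL9 had 0.89, 0.30 and 1.32, with a mean of 0.84 ± 0.51. MRPL37 (mL54) had 0.57, 0.52 and 0.97, with a mean of 0.69 ± 0.24. Adjusted p was 0.014 for MRPL9 and 0.0078 for MRPL37 (limma), but that of MRPL9 was 0.083 without the third array and 0.062 without the first. MRPL6 (uL6m), from 1 probe, and MRPL17 (mL46) had means of 0.66 ± 0.25 and 0.65 ± 0.20. MRPL38 (uL14m), the least variable of the 8, had 0.52, 0.66 and 0.46, with a mean of 0.55 ± 0.10 (adjusted p = 0.0073 by limma). MRPL49 (bL21m) and MRPL32 (bL32m), the protein that the m-AAA protease of the inner membrane trims before it can be built into the ribosome, had 0.50 ± 0.20 and 0.49 ± 0.19. MRPL49 lost its call without any 1 of the 20 µM arrays, MRPL32 without the first or the third, MRPL6 without the second or the third, and MRPL17 without the third.

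The lower large-subunit mutants were MRPL51 and MRPL8. MRPL51 (mL43) had −0.98, −1.12 and −1.48 at 20 µM and −0.51 and −1.70 at 12 µM. All 5 values were below −0.5, and the mean at 20 µM was −1.19 ± 0.26 (adjusted p = 0.0057 by limma), with an adjusted p from 0.018 to 0.040 when any 1 of its 20 µM arrays was left out. MRPL8 (bL17m) had −0.65, −0.58 and −0.82 at 20 µM and −0.38 and −1.04 at 12 µM. It too was below 0 on all 5, and its mean at 20 µM was −0.68 ± 0.12 (adjusted p = 0.012 by limma, 0.067 without the third array). The growth scores were −0.49, −0.95 and −0.53 for MRPL51 and 0.19, −0.20 and 0.025 for MRPL8. Neither passed the test, and the difference between the pair was not tested. MRPL51 (adjusted p = 0.061 for growth by limma) passed when arrays were centred (0.046), but not when they were also scaled. It also passed with the growth arrays alone (0.037) and with replicate number as a block (0.046). MRPL39 and MRP49 (mL61) were the next lowest at 20 µM, with −0.43 ± 0.16 and −0.23 ± 0.20, and did not pass. The reading frame of MRPL51 overlaps that of YPR099C, which had no value, and MRPL8 stands next to DLS1, the mutant of which had 1.58, 1.59 and 3.23 at 20 µM.

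In the small subunit, 5 of 19 mutants were higher and none lower, with 9 of 19 at an unadjusted p under 0.05 by limma, against 38.9% of all genes. RSM18 (bS18m) had 1.23, 0.51 and 1.04 at 20 µM, with a mean of 0.92 ± 0.37 (adjusted p = 0.031 by limma). The SD between its 2 probes was 0.72, against a median of 0.24 over the mutants. MRPS35 (mS45), from 1 probe, had 0.86, 0.44 and 1.09, with a mean of 0.80 ± 0.33 (adjusted p = 0.015 by limma). MRP51 (bS1m), linked by genetics to the leaders of the COX2 and COX3 messages, had 0.24, 0.85 and 0.90, with a mean of 0.66 ± 0.37 (adjusted p = 0.019 by limma). Each of these was above 0 on all arrays, and each lost its call without the third array (limma adjusted p = 0.14, 0.071 and 0.11). RSM18 and MRPS35 also lost it without the first (0.14 and 0.066), and MRP51 without the second (0.090). MRPS5 (uS5m) and RSM23 completed the 5, with 0.60 ± 0.24 and 0.58 ± 0.23. MRPS5 lost its call without the first or the third array, and RSM23, from 1 probe, without any 1 of the 3. RSM7 (uS7m) had 0.74, 0.59 and 1.25, a mean of 0.86 ± 0.35 that was larger than most of those called, but an adjusted p of 0.056 by limma. At the other end were RSM25 (−0.28 ± 0.54), RSM28 (mS46, −0.27 ± 0.04), MRP13 (−0.24 ± 0.15) and MRP17 (bS6m, −0.16 ± 1.26, n = 2), none of which passed. The values of MRP17, from its only probe, were −1.05 and 0.73, on opposite sides of 0.

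RSM22 had the lowest mean of the 54 at 20 µM. Its values were −1.68, −0.87 and −1.64 at 20 µM and −0.47 and −1.21 at 12 µM. All were below 0, and the mean at 20 µM was −1.40 ± 0.46 (adjusted p = 0.017 by limma). Without the first or the third 20 µM array the adjusted p was 0.080 or 0.093. The mutant of its neighbour RPS27A, a cytosolic ribosomal protein, had a mean of −0.89 at 20 µM and of 0.094 for growth.

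At 12 µM no mutant of the 50 passed the limma test, where 0.137% of all genes were higher and 0.87% lower. An unadjusted p under 0.05 was found for 3 of the 50 (6%), against 11.8% of all genes. The median was −0.079 over the 50 mutants, −0.059 over the large subunit, −0.079 over the small subunit and 0.00035 over all genes. Both arrays were above 0 for 10 of 50 mutants and below 0 for 18 of 50, where 32.3% and 29.9% of all genes were. The lowest means belonged to MRPL51 (−1.10 ± 0.84, n = 2), RSM22 (−0.84 ± 0.52, n = 2), MRPL8 (−0.71 ± 0.47, n = 2) and MRP10 (−0.45 ± 0.28, n = 2). The lowest 3 were thus the mutants called lower at 20 µM. MRPL51 and MRPL8 passed at 12 µM only when the arrays were centred and scaled to 1 spread (adjusted p = 0.020 for both by limma). The highest were MRPL37 with 0.44 and 0.27, MRPL9 with 0.36 and 0.32, and MRPL17 with 0.052 and 0.39, all higher at 20 µM. The study describes untreated, 12 µM and 20 µM cultures of the pool together, so both SeMet groups may share untreated cultures, which the labels do not say. The test of their difference below took all arrays as independent, which ratios to a shared culture would not be.

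The difference between concentrations passed the test for none of the 50 mutants scored at both, nor for any of the 4364 genes, while 8 of the 50 (16%) had an unadjusted p under 0.05 (limma), against 12.9% of all genes. The median of 20 µM minus 12 µM was 0.40 over the mutants and −0.088 over all genes. The smallest p was that of MRPL38, with 0.52, 0.66 and 0.46 at 20 µM and −0.064 and −0.38 at 12 µM. The groups did not overlap, and the difference was 0.77 with an SE of 0.17 (adjusted p = 0.13 by limma). In MRPL25, the values at 12 µM were 0.17 and 0.21, below each of its values at 20 µM, and the difference was 0.80 with an SE of 0.26. All 3 values at 20 µM above 0 and both at 12 µM below 0 were found in 7 of 50 mutants, against 1.46% of all genes. They were MRPL33, MRPL38, MRPL40, MRPL49 and MRPL50 of the large subunit and RSM7 and RSM27 of the small subunit. The opposite pattern was found in none of the 50, against 3.4% of all genes.

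In SeMet the subunits were compared in the same way. The median of the large subunit on the 20 µM arrays was 0.24, 0.23 and 0.47, and that of the small subunit 0.14, 0.30 and 0.49. The large minus small difference was 0.11, −0.070 and −0.023, and at 12 µM it was −0.022 and 0.029. Its sign thus changed between arrays at each concentration, unlike that of the growth scores.

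Growth scores and SeMet scores are set side by side in the plot of both scores. They may share the untreated pool, so no correlation is given. The 22 mutants scored in both and with lower growth, RSM22 among them, had a median growth score of −1.33 and a median 20 µM score of 0.31. At 20 µM, 5 of them were higher and 1, RSM22, was lower. The 31 others had a median growth score of −0.12 and a median 20 µM score of 0.33, with 8 higher and 2 lower. MRP7 and MRPL11, among the most depleted in growth, had 20 µM means of −0.19 ± 0.38 and −0.15 ± 0.44 (n = 2), whereas MRPL9, nearly as depleted, had 0.84 ± 0.51. RSM19 and MRP1 gave a value on only 1 array of the 20 µM group, −0.43 and 0.13, and could not be scored there. MRPL11 gave none on the third 20 µM array or the second 12 µM array. How far the tags of the most depleted mutants lay above background is unknown, so their SeMet scores carry that limit.

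**Figure D3:**
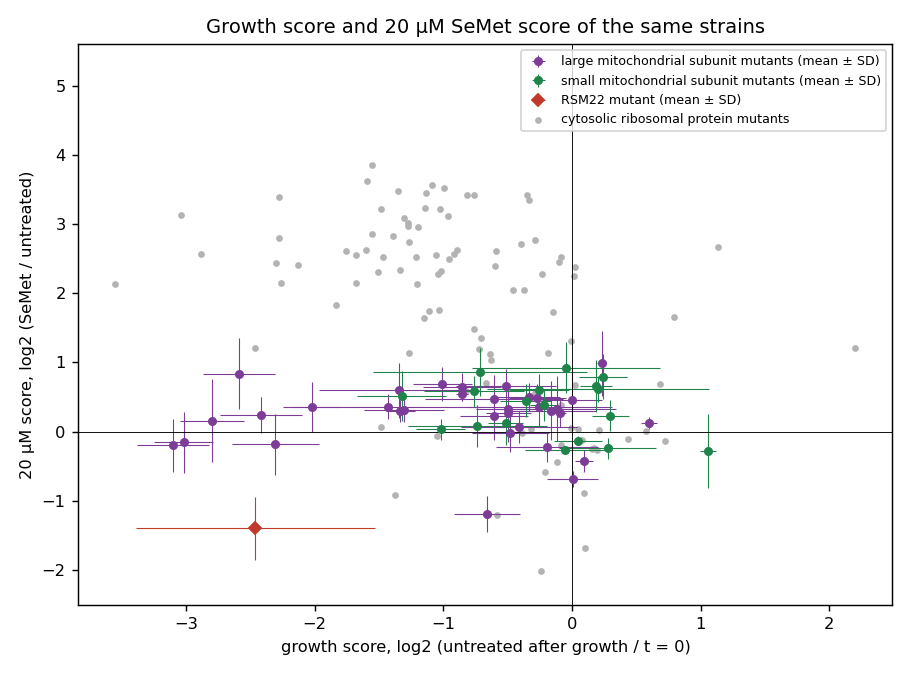
Mean growth score (x axis) and mean 20 µM SeMet score (y axis), both log2 ratios, of mutants scored in both groups; bars are SD over arrays, and grey points are means of mutants of cytosolic ribosomal proteins. Mitochondrial ribosome mutants and RSM22 spread along the x axis from −3.10 to 1.06 but stay between −1.40 (RSM22) and 0.99 on the y axis. Many grey points lie above 2.

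Mutants of the cytosolic ribosome, which makes all other proteins of the cell, give the nearest comparison. At 20 µM the medians of the large and small mitochondrial subunit were 0.31 and 0.39, with 8 of 34 and 5 of 19 mutants higher. Of the cytosolic ribosome, 40 of 58 mutants of the large cytosolic subunit were higher and 2 lower, with a median of 2.35, and 32 of 44 of the small cytosolic subunit were higher and 3 lower, with a median of 1.80. In growth, medians were −0.51 and −0.22 for the large and small mitochondrial subunit, and −0.69 and −1.05 for the large and small cytosolic subunit. Growth was lower in 17 of 60 and 19 of 43 of the cytosolic mutants and higher in 1 and 2, against 12.7% and 14.2% of all genes. Among mutants with lower growth, the median 20 µM score was 0.32 and 0.13 for the 16 and 5 of the large and small mitochondrial subunit. It was 2.74 and 2.43 for the 15 and 18 of the large and small cytosolic subunit. The median growth scores of the same mutants were −1.39, −0.76, −1.51 and −1.24. The lists were not compared by a test.

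Other lists of genes around mitochondrial translation were counted in the same way. Of all genes, 12.5% were higher and 13.8% lower at 20 µM, and 14.2% were higher and 12.7% lower in growth. Of the translation factors and membrane anchors of the mitochondrial ribosome, 3 of 13 were higher and none lower at 20 µM, with a median of 0.25, and 9 of 14 were lower in growth. They were GUF1, a ribosome-bound GTPase related to elongation factors (1.07 ± 0.26), OXA1, the insertase that receives nascent chains from the mitochondrial ribosome (1.06 ± 0.21), and AIM23, the mitochondrial initiation factor IF3 (0.83 ± 0.45). Of the mitochondrial tRNA synthetases and tRNA-modifying enzymes, 3 of 14 were higher and none lower at 20 µM, with a median of 0.20. In growth, 11 of 15 were lower and 1 higher. The 3 higher at 20 µM were the synthetases MSY1 (1.10 ± 0.43), MST1 (0.67 ± 0.30) and MSM1 (0.61 ± 0.23), for tyrosine, threonine and methionine. Of the ribosome assembly factors, MRM1 (0.57 ± 0.24) was higher and MAM33 (−0.68 ± 0.26) lower among 8, with a median of 0.20, and 5 of 8 were lower in growth. Of the activators of translation of single mitochondrial messages, 6 of 15 were lower and SOV1 (0.40 ± 0.19) was higher at 20 µM, with a median of −0.43, and 10 of 15 were lower in growth. Of the nuclear genes for the respiratory chain, the ATP synthase and their assembly, 4 of 44 were higher and 14 lower at 20 µM, with a median of −0.36. Growth was lower in 17 of 46 of these and higher in 2.

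**Figure D4:**
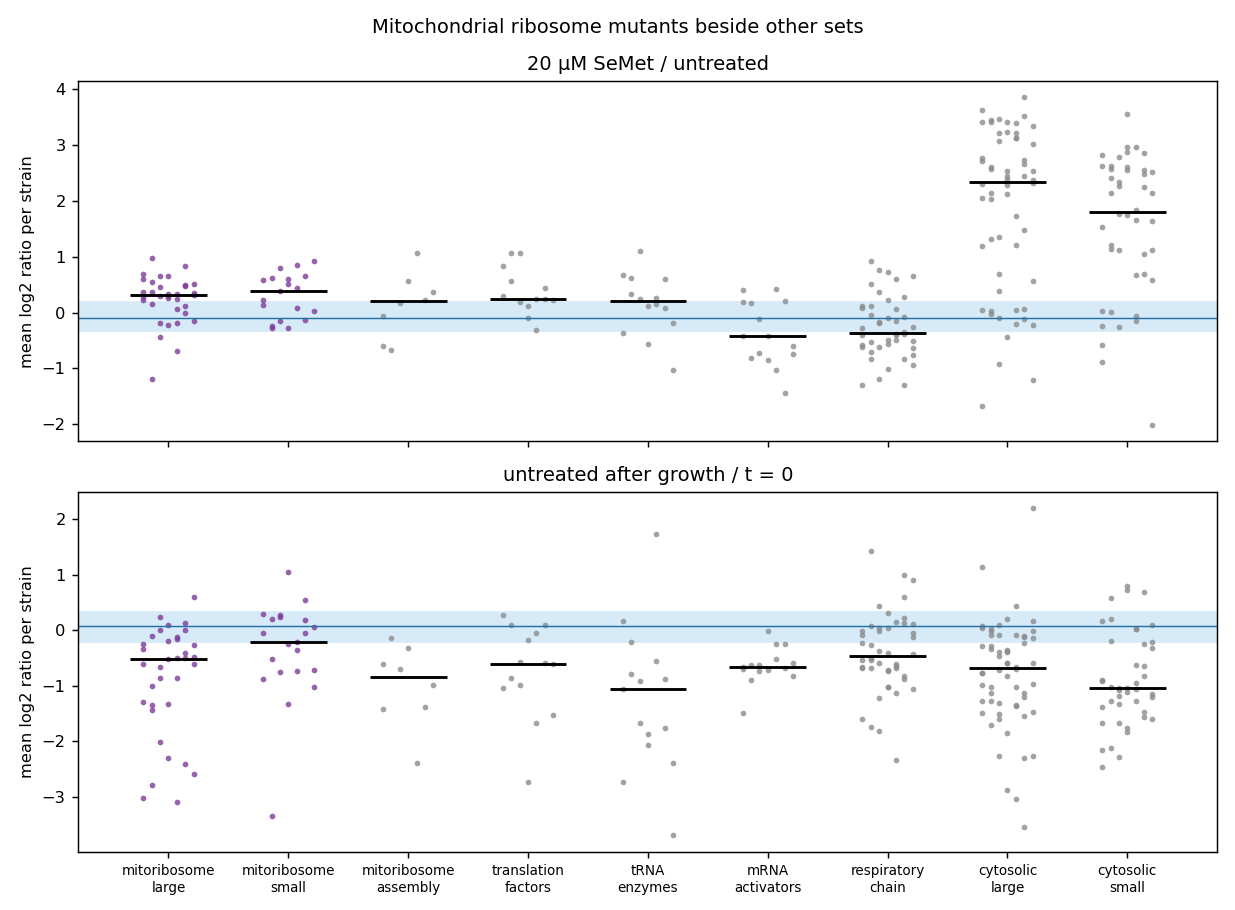
Mean log2 ratio of each scored mutant (points) in 9 sets at 20 µM SeMet over untreated (top) and for untreated after growth over t = 0 (bottom); black bars are the median of each set, and the blue line and band the median and quartiles of all genes. At 20 µM the sets of mitochondrial translation have medians from −0.43 (mRNA activators) to 0.39 (small mitochondrial subunit), and the cytosolic subunits medians of 2.35 and 1.80.

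Mitochondrial ribosomal proteins whose names lie outside the rule were scored apart. At 20 µM none of 3 of the large subunit and none of 5 of the small subunit passed, and none had an unadjusted p under 0.05 (limma). In growth, 2 of 4 of the large subunit were lower, MHR1 (mL67, −1.23 ± 0.40) and RML2 (uL2m, −3.23 ± 1.29, n = 2). Of the small subunit, PET123 (mS26) was lower, with −1.46 ± 0.28, and FYV4 (mS41) higher, with 0.88 ± 0.26. With these genes added to the members, the median of the small subunit at 20 µM was 0.11.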

How the data were processed

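Barcodes of the pooled strains were amplified by PCR with labelled oligonucleotides and hybridized to custom Agilent slides, which were scanned and quantified with GenePix Pro. The deposited table gives each probe's log2 ratio, Cy3 (SeMet or grown pool) over Cy5 (untreated or t = 0 pool), which the authors normalized with R scripts. The background correction and normalization are not given in the sources used here, and signal over background is unknown, so the number of arrays limits the precision. Direction and scale were checked on 731 to 767 genes per array, against deletion strains of the study's supplementary score table only.

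Of 15744 probes, 2660 without a gene symbol were left out. Probes of a gene were averaged on each array, and a gene needed values on 2 arrays or more of a group to be scored. Means of the 3 groups were fitted over all 8 arrays with lmFit and eBayes of limma 3.58.1 (R 4.3.3). Tests were two-sided, p-values were adjusted by Benjamini-Hochberg over all genes, and the threshold was 0.05. The fit was tested on simulated data. The labels call the arrays biological replicates. Summaries used Python 3.11.15, pandas 2.3.3, numpy 2.4.6 and matplotlib 3.10.9.

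The members, gene lists and naming rule were chosen with earlier results of these data known. Named were, per subunit, the 4 lowest and 4 highest means at 20 µM and in growth. The 3 lowest and 3 highest at 12 µM, RSM22 and MRP8 were named too. Of each other list, up to 2 lowest and 2 highest at 20 µM were taken. Those that did not pass at 20 µM were left out above, except CBP3 and those named for growth. Left out were, for example, SLM5 (−1.03 ± 0.92) and MRM2 (1.07 ± 1.29) at 20 µM. Mutants that passed the test, and AIM23, MSM1 and RML2, were also named, after their values were seen. Alternatives were the median of probes, centring, scaling, complete genes, separate fits, robust eBayes, a replicate block, other member sets, at least 2 probes, and leaving out each array. RefSeq served for universal names and neighbouring genes. Tag and protein sequences were not used here.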

Additional observations from a re-analysis of the deposited data

How the results depend on the processing

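Adding the mitochondrial ribosomal proteins of other names moved the 20 µM median of the small subunit to 0.1068 and the large minus small difference to 0.1962 at 20 µM and −0.4614 in growth. Centring and scaling all arrays gave 2 mutants lower at 12 µM and a large minus small difference of −0.03198. Leaving out 1 array at a time gave 3 to 14 mutants higher and 1 to 4 lower at 20 µM, 17 to 24 lower and 2 higher in growth, and none at 12 µM or in the difference between concentrations. The lowest count at 20 µM came without 20 µM array 3, when all genes gave 371 higher and 364 lower. The large minus small difference ran from −0.15 to −0.018 at 20 µM, −0.0224 to 0.02924 at 12 µM and −0.45 to −0.16 in growth. A 12 µM group of 1 array is assumed to vary like the others. The cause of these changes was not tested. No called mutant changed direction. The large minus small difference changed sign at 20 µM with the other names added and among genes on all 8 arrays, and at 12 µM after centring and scaling and without 12 µM array 2. The other 165 counts and medians, outside those that leave out an array, stayed within 1.5 times the count or 1 SD between arrays. With only the 20 µM arrays in the fit, MRP51, MRPL9, MRPL32, MRPL49, MRPS5 and RSM23 lost their call at 20 µM and MRPS28 and RSM7 gained one, which left 9 higher.

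Replicate numbers were not used to pair the arrays in the main fit. Same-numbered arrays of the SeMet groups had correlations of −0.15 and −0.27 between their deviations from the group means over 4209 genes. The deviations of the 2 arrays at 12 µM mirror each other, so these correlations cannot decide whether the arrays are paired. With the replicate block, 14 mutants were higher and 3 lower at 20 µM, 2 higher and 25 lower in growth, and none at 12 µM or between concentrations. RSM23 lost its call at 20 µM under the block and IMG1 its call in growth. The arrays crossed in number gave the reverse correlations, as 2 arrays must, and were not paired. Over all genes, 12 µM gave 6 higher and 38 lower, but 174 and 198 after centring and scaling and 81 and 79 with its own arrays alone. The difference between concentrations gave 0 calls over all genes, but 16 higher and 8 lower after centring and scaling.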

Other observations

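The genes of the respiratory chain and ATP synthase were divided by enzyme after their values at 20 µM were seen. Shares over all genes at 20 µM were 12.5% higher and 13.8% lower. Of 9 scored genes of the ATP synthase or its assembly, 4 were higher and none lower at 20 µM, with a median of 0.60 and means from −0.27 to 0.92. The 4 higher ones were ATP7 (0.92 ± 0.15), ATP11 (0.76 ± 0.45), ATP4 (0.66 ± 0.32) and ATP18 (0.60 ± 0.32, SD, n = 3 each). Of 19 scored genes of cytochrome oxidase or its assembly, none was higher and 10 were lower, with a median of −0.56 and means from −1.30 to 0.38. The lower ones included COX19 (−1.30 ± 0.53), COX15 (−0.83 ± 0.39) and COX12 (−0.75 ± 0.21). Of the 16 other genes of the list 4 were lower, and cytochrome c (CYC1, −0.95 ± 0.31) and the lyase that attaches its haem (CYC3, −1.30 ± 0.57) were among them. Among the 6 activators that were lower, PET309 (−1.02 ± 0.09) and MSS51 (−0.81 ± 0.24) serve the COX1 message, PET111 (−0.73 ± 0.37) the COX2 message, PET494 (−1.44 ± 1.39) and PET54 (−0.74 ± 0.32) the COX3 message and CBS1 (−0.60 ± 0.17) the cytochrome b message. Of the 15 scored activators, 8 did not pass and SOV1 was higher. CBP3, which did not pass, had the highest mean, 0.42 ± 0.10 (adjusted p = 0.0504 by limma). The messages of the activators that were not lower are not set out here, so those named describe only the lower 6. No test compared these groups of genes.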
